A study of Capra hircus with 9 samples.

Results

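A group of 10 genes for antimicrobial and acute phase proteins was examined in the goat mammary gland: *S100A8*, *S100A9*, *S100A12*, *LCN2*, *HP*, *LBP*, *PGLYRP1*, *SLPI*, *SAA3* and *PTX3*. The genes were chosen by symbol, and 6 of the 10 had a row of that symbol among the 23499 genes of the expression table. *S100A12*, *HP*, *SLPI* and *SAA3* were not analysed here. The tissue came from 9 healthy Laoshan dairy goats of the third parity with a mean age of 4 years, each giving 1 library. There were 3 goats in late lactation (LL, 240 days postpartum), 3 in the dry period (DP, 300 days postpartum) and 3 in late gestation (LG, 140 days after mating), and LL1 to LL3, DP1 to DP3 and LG1 to LG3 denote the libraries. The goats were untreated, each goat was sampled at a single stage, and whole gland tissue was used, so a lower number of cells of one type and less RNA per cell cannot be told apart.

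These proteins belong to innate defence. S100A8 and S100A9 pair to form calprotectin, which withholds zinc and manganese from microbes, while LCN2 captures bacterial siderophores and so withholds iron. PGLYRP1 binds the peptidoglycan of bacterial walls, LBP passes lipopolysaccharide to CD14 and on to the TLR4 complex, and PTX3 is a long pentraxin that binds microbes and complement proteins. Several of them are stored in neutrophils, and several are also made by epithelial or stromal cells. In the udder they are best known for rising during mastitis.

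The values are FPKM, a level per length of gene and per sequenced fragment, with 2 decimals. The 10 genes with the highest values accounted for 80.6% to 86.0% of the summed FPKM of LL libraries and for 53.6% to 58.5% of that of DP and LG libraries. Each library was therefore divided by a scaling factor (LL, 0.498 to 0.605; DP, 1.44 to 1.53; LG, 1.2 to 1.31), and all levels below are scaled FPKM unless said otherwise. Without scaling, the median log2 fold change of all genes tested moved to 1.09 (DP against LL), 0.93 (LG against LL) and -0.18 (LG against DP), so every change below is relative to the typical gene. Fold changes are on the log2(scaled FPKM + 1) scale, which understates changes of low genes, and their standard errors (SE), 95% intervals and adjusted p-values are from limma over all 14701 genes tested. A gene was called changed where the adjusted p was under 0.05 and the log2 fold change reached 1 in either direction. The 5 milk protein genes, the abundant products of luminal cells, summed to 501560 to 811890 in LL libraries, but to 72.4 to 89.4 in DP libraries and 7228 to 10075 in LG libraries. Among them *CSN1S1*, *CSN1S2* and *CSN3* followed one another closely. As deposited they were at 90859, 90861 and 90874 FPKM in LL1 and at 1236, 1239 and 1251 in LG1. The sums, and the share of the 10 highest genes where it includes these, therefore do not hold independent levels. The luminal epithelial markers summed to 374 to 1199 over the libraries. Not each of them was present throughout. *KRT23* stayed under 0.5 FPKM in every library, and *MUC1* was at 0.20 to 0.58 FPKM as deposited in DP libraries against 6.45 to 10.08 in LL libraries.

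All 6 genes passed the filter of at least 0.5 FPKM in at least 3 libraries. In DP against LL, 0 of the 6 were called higher and 2 lower, *LCN2* and *PGLYRP1*, while of all genes tested 22.6% were called, 13.8% higher and 8.79% lower. In LG against LL, 0 were called higher and 4 lower, *S100A9*, *LCN2*, *LBP* and *PTX3*, while of all genes 17.3% were called, 10.7% higher and 6.61% lower. In LG against DP, 1 was called higher, *PGLYRP1*, and 3 lower, *S100A9*, *LBP* and *PTX3*, while of all genes 13.3% were called, 6.37% higher and 6.88% lower. The median log2 fold change of the 6 was -0.22, -1.59 and -1.43 in the same order of comparisons, and that of all genes was 0.0041, 0.019 and 0.0083. At an unadjusted p under 0.05, 2, 5 and 5 of the 6 passed, as did 62.2%, 56.7% and 45.4% of all genes. The comparisons share libraries, so their counts are not independent of each other. With unscaled FPKM the calls among the 6 became 1 higher and 2 lower (DP against LL, with 54.3% and 2.51% of all genes), 1 higher and 1 lower (LG against LL, with 45.6% and 2.35%), and 1 higher and 4 lower (LG against DP, with 4.86% and 10.7%).

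**Figure D1:**
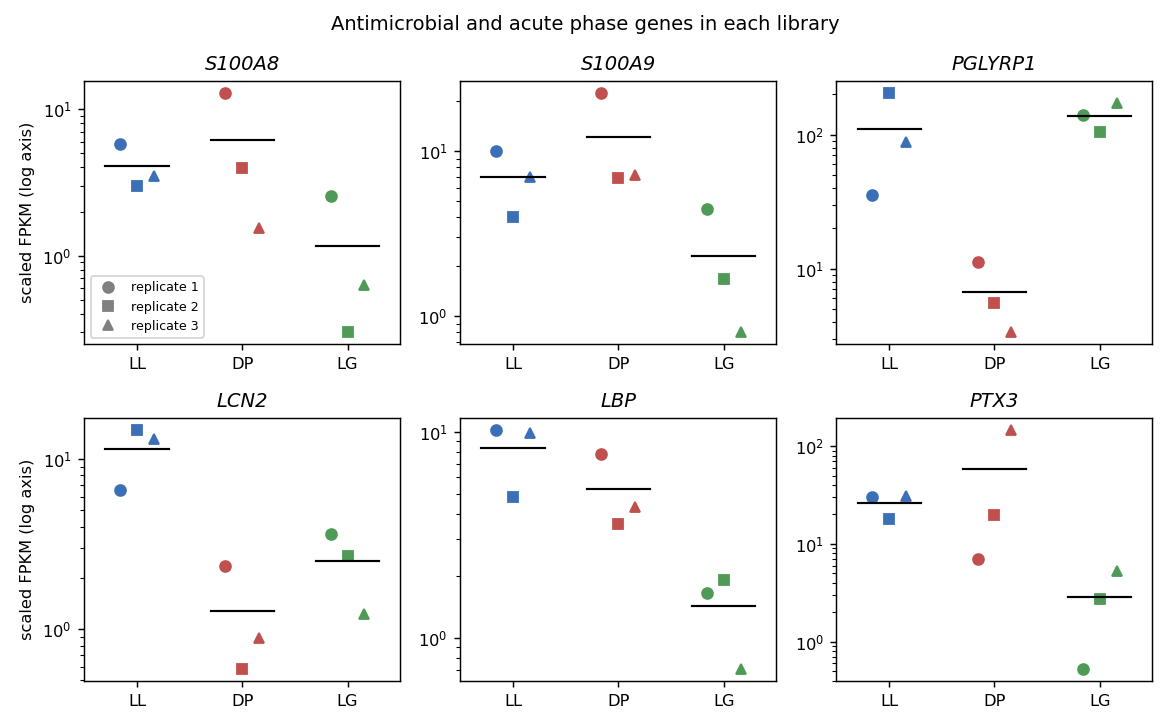
Scaled FPKM (log axis, own range in each panel) of the 6 genes in each library of late lactation (LL), the dry period (DP) and late gestation (LG). Symbols mark replicates 1 to 3 and the line is the mean of 3 libraries. *PGLYRP1* lay at 3.35 to 11.2 in DP and at 35.2 or above elsewhere, *LCN2* lay lower in all DP and LG libraries than in any LL library, and *LBP* and *PTX3* lay lowest in LG.

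*S100A8* and *S100A9*, the calprotectin subunits, are neighbours on goat chromosome 3 (ARS1.2). *S100A9* (gene 102182273) lies on the plus strand at chr3:103059859-103062650 and *S100A8* (gene 102168876) on the minus strand at chr3:103093868-103095109. *S100A9* was at 9.99, 3.98 and 7.0 in LL1 to LL3, at 22.4, 6.90 and 7.13 in DP1 to DP3, and at 4.48, 1.67 and 0.799 in LG1 to LG3. DP1 stood above the other 8 libraries, LL and DP overlapped, and all LG libraries lay below all DP libraries but not below all LL libraries. Its mean ± SD (n = 3) was 6.99 ± 3.00 for LL, 12.2 ± 8.90 for DP and 2.31 ± 1.92 for LG.

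*S100A9* fell in LG by 1.95 on the log2 scale against DP (SE 0.51, adjusted p = 0.0155) and by 1.35 against LL (SE 0.51, adjusted p = 0.0492). The difference between DP and LL was 0.59 (95% interval -0.54 to 1.73, adjusted p = 0.335), and on unscaled FPKM it was 1.81 and called higher (adjusted p = 0.00642). The call in LG against LL lay next to the threshold and was kept in 10 of 19 alternatives, with adjusted p from 0.00305 to 0.442. It was lost without LL1, LL3, DP2, LG2 or LG3, at adjusted p of 0.146, 0.107, 0.0510, 0.118 and 0.168, on unscaled FPKM (-0.44, adjusted p = 0.442), with quantile normalization (0.0753), with no filter on low values (0.0891) and with no trend (0.0512). The call in LG against DP was lost without LG3 (log2 fold change -1.58, adjusted p = 0.0585).

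*S100A8* had its highest and lowest means in the same stages as *S100A9*. It was at 5.79, 2.96 and 3.52 in LL1 to LL3, at 12.9, 3.97 and 1.54 in DP1 to DP3, and at 2.56, 0.30 and 0.632 in LG1 to LG3. DP1 was again the highest library, LG lay below every LL library, and DP3 lay below LG1. Its mean ± SD (n = 3) was 4.09 ± 1.5 for LL, 6.13 ± 5.98 for DP and 1.16 ± 1.22 for LG. No comparison passed the test with all 9 libraries in the fit: DP and LL differed by 0.18 (95% interval -1.10 to 1.45, adjusted p = 0.806), LG and LL by -1.34 (-2.61 to -0.06, adjusted p = 0.0759) and LG and DP by -1.51 (adjusted p = 0.0652). The calls depended on single libraries. Without DP1, DP3 or LG1 the difference between LG and LL was called (log2 fold changes of -1.31, -1.31 and -1.75), without DP3 or LG1 that between LG and DP was called (-2.05 and -1.93), and without DP1 the latter was -0.83. The difference between LG and LL was also called with only those 2 stages in the fit (adjusted p = 0.0144) or a pseudocount of 0.1 (adjusted p = 0.0459), and that between LG and DP on unscaled FPKM (-1.82, adjusted p = 0.0345).

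The level of *S100A9* was above that of *S100A8* in each of the 9 libraries. The ratio of *S100A9* to *S100A8*, a ratio of levels per length, was 1.73, 1.34 and 1.99 in LL1 to LL3, 1.74, 1.74 and 4.64 in DP1 to DP3, and 1.75, 5.57 and 1.27 in LG1 to LG3. It lay between 1.27 and 1.99 in 7 libraries and was higher in DP3 and LG2. Between the 2 genes lies LOC102169149 (chr3:103073863-103075388, minus strand), which was singled out for this position after its values were seen, and whether it is one of the 4 genes without a row was not determined. It was at 17.0, 7.68 and 19.4 in LL, at 26.2, 10.8 and 1.49 in DP, and at 5.07, 0.835 and 1.29 in LG, with DP1 highest. It fell in LG against LL by 2.32 on the log2 scale (adjusted p = 0.0325), while the values in DP against LL (-0.66, adjusted p = 0.485) and LG against DP (-1.66, adjusted p = 0.130) did not pass.

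DP1, the highest library for both calprotectin genes, also had the highest level of *PTPRC*, the pan-leukocyte marker CD45, with 36.7 against 13.2 and 19.1 in the other DP libraries. The summed lymphocyte markers were 96.2 in DP1 against 35.9 and 40.6, and the summed adipocyte markers were 22.8 against 3.56 and 3.77. The summed neutrophil markers were 23.8 in DP1 against 18.4 and 19.1. The part of these cell types in the level of *S100A8* and *S100A9* was not tested.

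*PGLYRP1* (gene 102168570, chr18:54562177-54566408, minus strand), the peptidoglycan recognition protein, had the highest level of the 6 genes in LL and LG. It was at 35.2, 205.1 and 89.0 in LL1 to LL3, at 11.2, 5.51 and 3.35 in DP1 to DP3, and at 140.5, 105.1 and 172.1 in LG1 to LG3. Every DP library lay below every LL and LG library, whereas the LG libraries fell inside the range of the LL libraries. Its mean ± SD (n = 3) was 109.8 ± 86.8 for LL, 6.68 ± 4.05 for DP and 139 ± 33.5 for LG. Only 2.36% of the genes tested had a higher mean in LL and 1.48% in LG, against 36.1% in DP.

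Against LL, *PGLYRP1* fell in DP by 3.64 on the log2 scale (SE 0.57, adjusted p = 0.000628) and was higher in LG than in DP by 4.29 (SE 0.57, adjusted p = 0.000547). Both calls were kept in all 19 alternatives, unscaled FPKM included. LG and LL differed by 0.65 (95% interval -0.63 to 1.94, adjusted p = 0.372). That interval leaves room for no change and for a higher or a lower level in LG. On unscaled FPKM this difference was 1.81 and was called (adjusted p = 0.0181), and the value ranged from 0.0031 without LL1 to 1.26 without LL2.

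*LCN2* (gene 102188951, chr11:98324682-98329266, plus strand), the siderophore-binding lipocalin, was lower in both other stages than in late lactation. It was at 6.53, 14.8 and 13.01 in LL1 to LL3, at 2.36, 0.583 and 0.882 in DP1 to DP3, and at 3.61, 2.69 and 1.23 in LG1 to LG3. All DP and LG libraries lay below all LL libraries, and DP and LG overlapped. Its mean ± SD (n = 3) was 11.5 ± 4.37 for LL, 1.28 ± 0.953 for DP and 2.51 ± 1.2 for LG. Against LL, *LCN2* fell in DP by 2.46 on the log2 scale (SE 0.37, adjusted p = 0.000496) and by 1.82 in LG (SE 0.37, adjusted p = 0.0032). LG and DP differed by 0.64 (95% interval -0.19 to 1.48, adjusted p = 0.209). The first call was kept in all 19 alternatives, and the second was lost only on unscaled FPKM (-0.84, adjusted p = 0.0795).

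Marker sums were set beside the levels of *PGLYRP1* and *LCN2*. The neutrophil markers summed to 34.6 to 47.4 in LL libraries, to 18.4 to 23.8 in DP libraries and to 14.9 to 23.1 in LG libraries. The gap between LL and DP rested on *NCF4*, a subunit of the phagocyte NADPH oxidase. Without *NCF4* the sums were 13.96 to 25.5 in LL libraries and 13.6 to 19.0 in DP libraries, which overlapped. The LG libraries, at 8.67 to 13.3 without *NCF4*, still lay below the LL libraries. The median log2 fold change of the 10 neutrophil markers tested was -0.048 in DP and -0.67 in LG, each against LL. The luminal epithelial markers summed to 939 to 1199 in LL libraries, to 374 to 681 in DP libraries and to 874 to 1037 in LG libraries. That gap rested on *ELF5*, a transcription factor of milk-secreting cells, without which LL libraries lay at 460.0 to 523 and DP libraries at 349 to 636. *NCF4* and *ELF5* were left out after the values were seen. On unscaled FPKM the full neutrophil sums were 21.0 to 24.6 in LL libraries against 26.5 to 36.4 in DP libraries, and *LCN2* and *PGLYRP1* were still called lower in DP (-1.39 and -2.32). The part of either cell type in these levels was not tested.

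*LBP* (gene 102186029, chr13:66781049-66817791, plus strand), which carries lipopolysaccharide to CD14, was lowest in late gestation. It was at 10.2, 4.83 and 9.84 in LL1 to LL3, at 7.82, 3.57 and 4.33 in DP1 to DP3, and at 1.65, 1.91 and 0.708 in LG1 to LG3. Every LG library lay below every other library, while LL and DP overlapped. Its mean ± SD (n = 3) was 8.29 ± 3.01 for LL, 5.24 ± 2.27 for DP and 1.42 ± 0.631 for LG. *LBP* fell in LG by 1.92 on the log2 scale against LL (SE 0.32, adjusted p = 0.00119) and by 1.34 against DP (SE 0.32, adjusted p = 0.0109), and both calls were kept in all 19 alternatives. In DP against LL the value was -0.57 (95% interval -1.3 to 0.15, adjusted p = 0.154), and it was 0.63 on unscaled FPKM.

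The receptors that take over from LBP moved less uniformly. *CD14*, the lipopolysaccharide co-receptor of macrophages, was at 9.72, 7.83 and 7.89 in LL, at 7.89, 19.5 and 19.8 in DP, and at 2.63, 4.43 and 2.66 in LG. It fell in LG by 1.90 on the log2 scale against DP (adjusted p = 0.00161) and by 1.18 against LL (adjusted p = 0.0111), the latter call not holding on unscaled FPKM (-0.19). Between DP and LL *CD14* was not called. It was called higher in DP on unscaled FPKM (1.99, adjusted p = 0.000122) and without DP1 (1.13, adjusted p = 0.0018). *TLR4*, the signalling receptor, had means of 4.76 in LL, 5.03 in DP and 3.28 in LG and passed the test in no comparison (0.09 between DP and LL, -0.43 between LG and LL and -0.52 between LG and DP on the log2 scale), though on unscaled FPKM it was called higher in DP than in LL (1.23).

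*PTX3* (gene 102179601, chr1:109705012-109711074, minus strand), the long pentraxin, varied most between libraries of one stage. It was at 30.4, 17.8 and 31.2 in LL1 to LL3, at 7.03, 19.8 and 147.3 in DP1 to DP3, and at 0.526, 2.76 and 5.25 in LG1 to LG3. DP3 stood far above all other libraries, DP1 lay below all LL libraries, and every LG library lay below every LL and DP library. Its mean ± SD (n = 3) was 26.4 ± 7.51 for LL, 58.1 ± 77.6 for DP and 2.84 ± 2.36 for LG. *PTX3* fell in LG by 3.02 on the log2 scale against LL (SE 0.91, adjusted p = 0.0201) and by 3.14 against DP (SE 0.91, adjusted p = 0.0240), and DP and LL differed by 0.13 (95% interval -1.91 to 2.16, adjusted p = 0.910).

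Single libraries moved these values of *PTX3*. Against DP, the log2 fold change in LG was -4.05 without DP1 and -1.95 without DP3, both called, and the call was lost without LG1 (-2.58, adjusted p = 0.0874) or LG2 (-3.23, adjusted p = 0.0520). It was also lost with only those 2 stages in the fit (adjusted p = 0.0567). Against LL, the call was lost without LL1, LL3 or LG1 (adjusted p = 0.0550, 0.0575 and 0.0744) and on unscaled FPKM (-1.98, adjusted p = 0.0677). DP3 also had the highest summed fibroblast markers, 2415 against 518 in DP1 and 923 in DP2, with 218 to 332 in LL and 527 to 962 in LG. Among the fibroblast markers 6 of 7 were called higher in DP than in LL, with a median of 1.85 on the log2 scale. Between LG and LL 2 of 7 were called higher in LG (median 0.11), and between LG and DP 3 were called lower in LG (median -1.06). The part of fibroblasts in the level of *PTX3* was not tested.

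**Figure D2:**
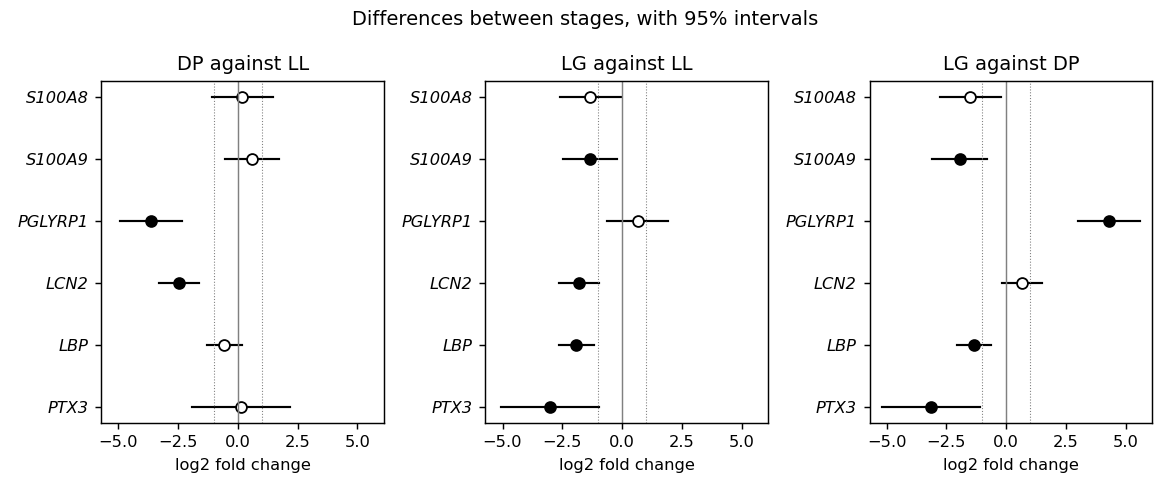
Log2 fold changes of the 6 genes in each comparison on the log2(scaled FPKM + 1) scale, with 95% intervals from limma (3 libraries a stage). Filled points were called, dotted lines mark the fold threshold of 1 in either direction. *PGLYRP1* changed by -3.64 in DP against LL and by 4.29 in LG against DP, and *PTX3* had the widest intervals.

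The stages did not overlap at all for some genes. DP lay below LL without overlap for *LCN2* and *PGLYRP1*, and 33.4% of all genes tested did so. LG lay below LL without overlap for *S100A8*, *LCN2*, *LBP* and *PTX3*, against 30.2% of all genes. LG lay below DP for *S100A9*, *LBP* and *PTX3* and above it for *PGLYRP1*, against 22.8% and 25.1% of all genes.

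**Figure D3:**
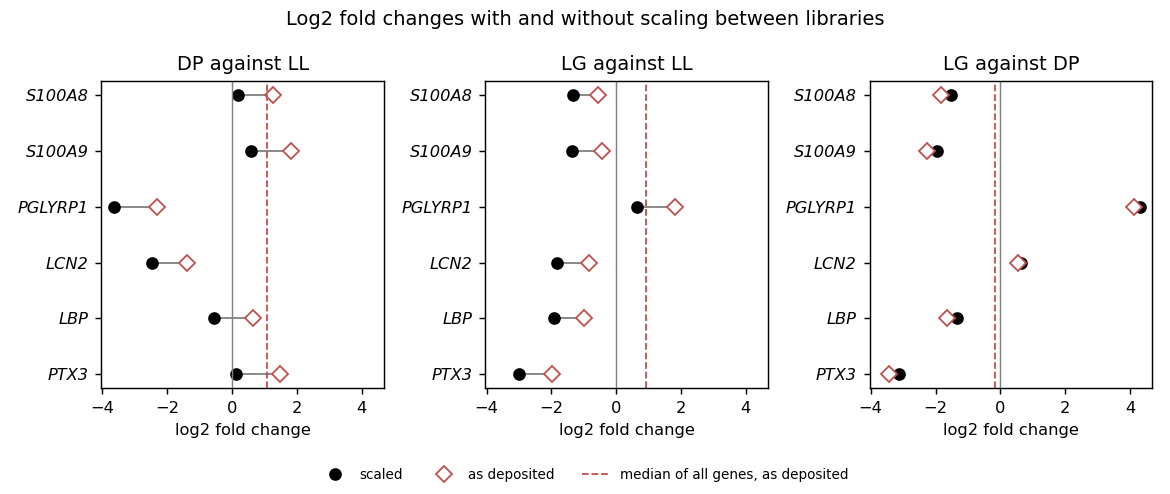
Log2 fold changes of the 6 genes with scaling between libraries (black points) and on FPKM as deposited (open diamonds), and the median of all genes as deposited (dashed line). Against LL the diamonds lie to the right, where the medians of all genes were 1.09 (DP) and 0.93 (LG), so *LBP* in DP against LL moved from -0.57 to 0.63. In LG against DP both values lie close together.

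Patterns like those of the 6 genes were sought among 6734 genes with a symbol and a range of at least 1 on the log2 scale, by Pearson's r over the 9 libraries, which share 3 stages. The closest to *S100A8* was *ARMT1* (r = 0.948), followed by *HEPACAM2* and *ERICH3*. The closest to *S100A9* were *TNFAIP2* (r = 0.942), *DOC2B* and *S-LZ*, a lysozyme gene from a family of similar copies whose reads the counting could have split. *LCN2* lay closest to *EFCAB11* (r = 0.976), *USF1* and *CEACAM19*. *LBP* lay closest to *NCF1* (r = 0.963), a subunit of the phagocyte NADPH oxidase, to *SELPLG*, the leukocyte ligand of P-selectin, and to *RABGAP1L*. *PGLYRP1* lay closest to C15H11orf52 (r = 0.978), *SLC28A3* (r = 0.978), a nucleoside transporter, and *SPATS2*. *PTX3* lay closest to *EMP1* (r = 0.968), *BCAR1* and *TGFBR1*, a receptor of TGF-beta. DP3 was the highest library for each of them as for *PTX3*, a likeness for which they were chosen.

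Other S100 genes were lower in LG than in DP for the most part, and fewer differed between LG and LL. Of 16 other family members listed, 13 were in the table and 9 were tested. Between LG and DP 0 were called higher and 6 lower, the median of the 9 being -1.65 on the log2 scale. On unscaled FPKM all 9 were called lower, as were 10.7% of all genes. *S100A2* fell by 2.99 (adjusted p = 0.000162), *S100A10*, the annexin A2 partner, by 2.24 (adjusted p = 0.00166) and *S100A13* by 2.20 (adjusted p = 8.51e-05). Against LL 3 were called lower in LG, *S100A2* (-2.72), *S100A10* (-1.76) and *S100A11* (-1.23), of which the latter pair did not pass on unscaled FPKM, where the list had 1 called higher and 1 lower and a median of 0.051. In DP 3 were called higher than in LL, *S100A1* (1.72), *S100A13* (1.56) and *S100B* (1.2, or 0.56 and not called with quantile normalization). On unscaled FPKM all 9 were called higher in DP, as were 54.3% of all genes.

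Other antimicrobial genes differed among themselves. Of 36 listed, 18 were in the table and 9 were tested. Between DP and LL 0 were called higher and 3 lower, *LPO*, *LTF* and *BPIFB1*. *LPO*, lactoperoxidase, fell by 7.34 (adjusted p = 2.95e-07), from 107 to 297 in LL libraries to 0.021 to 0.065 in DP libraries. *LTF*, the iron-binding lactoferrin, was at 1579, 999 and 2087 in LL, at 163, 83.5 and 179.5 in DP, and at 1562, 1333 and 1264 in LG. It fell in DP against LL by 3.46 (adjusted p = 3.32e-05) and was higher in LG than in DP by 3.35 (adjusted p = 0.000144). LG lay inside the LL range for *LTF*, as it did for *PGLYRP1*, with a value of -0.11 (adjusted p = 0.808) that was 1.07 on unscaled FPKM.

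In LG against LL, 1 other antimicrobial gene was called higher and 4 lower. *LPO* fell by 7.31 (adjusted p = 6.61e-07), so that it stayed at 0.032 to 0.117 in LG where *LTF* and *PGLYRP1* were high. *BPIFB1* fell by 2.11 (adjusted p = 0.000162), and *BPI*, the bactericidal relative of LBP, was higher by 1.72 (adjusted p = 0.0387), with 0.57 to 7.56 in LG libraries. The call of *BPI* was lost without LL1, LL2, LL3, LG1 (1.12, adjusted p = 0.134) or LG3, with adjusted p of 0.0803 to 0.134, and with quantile normalization or no filter on low values. The other call in LG against DP beside *LTF* was *RNASE6*, an antimicrobial ribonuclease, which fell by 1.57 (adjusted p = 0.0149).

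Of 24 other acute phase genes listed, 15 were in the table and 7 were tested. *CRP*, *APCS* and *AHSG* were listed at 0 in every library, and *HPX*, *FGA*, *FGB*, *ITIH3* and *HAMP* stayed under 0.5 FPKM in every library. Against LL, 2 were called higher and 1 lower in DP, and 0 higher and 1 lower in LG. Against DP, 0 were called higher and 2 lower in LG. *LRG1*, a leucine-rich glycoprotein, fell by 3.04 in DP (adjusted p = 1.55e-05) and by 3.73 in LG (adjusted p = 7.74e-06) against LL, the direction of *LCN2*. *CFB*, complement factor B, was higher in DP than in LL by 1.23 (adjusted p = 0.00145) and lower in LG than in DP by 2.17 (adjusted p = 0.00016). The other gene called lower in LG than in DP was *CP*, at 1.48, 0.499 and 7.24 in DP1 to DP3 and at 0.0919 to 0.175 in LG. Its call was lost without any single LL or LG library (adjusted p of 0.0547 to 0.1005). It was also lost with quantile normalization, no filter on low values or only the 2 stages in the fit. *TTR*, a thyroid hormone carrier of liver and choroid plexus, was higher in DP by 2.83 (adjusted p = 0.0238), at 11.1, 48.9 and 0.945 in DP1 to DP3, so DP3 lay near the level of LL2 at 0.868. Its call was lost without LL1, LL3, DP1 or DP2 (adjusted p of 0.0523 to 0.0642), the value being 1.68 without DP2, and with quantile normalization or only the 2 stages in the fit. *ALB*, the main hepatocyte product, was under 0.5 FPKM in every library.

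Among 16 receptors and partners of these proteins, 14 were tested. Against LL, 5 were called higher and 2 lower in DP, and 2 higher and 2 lower in LG. Against DP, 2 were called higher and 5 lower in LG. The LCN2 receptor *SLC22A17* was higher by 1.82 in DP (adjusted p = 1.36e-05) and by 2.59 in LG (adjusted p = 3.07e-06) than in LL, opposite to *LCN2*. *LRP2*, megalin, which also takes up LCN2, was higher by 1.55 in DP (adjusted p = 0.00751) and by 3.54 in LG (adjusted p = 9.62e-05). *MMP9*, the neutrophil gelatinase that LCN2 binds, fell in LG by 1.96 against LL (adjusted p = 0.00265) and by 1.52 against DP (adjusted p = 0.0141). *CD36*, a scavenger receptor that also carries fatty acids in milk-secreting cells, fell by 4.30 in DP against LL (adjusted p = 1.98e-06) and was higher by 3.61 in LG than in DP (adjusted p = 1.88e-05).

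The signals that are known to induce acute phase genes were listed as 27 genes, of which 20 were tested. The dry period had 2 called higher and 1 lower than LL, the latter *LIFR*, the leukaemia inhibitory factor receptor (-1.08, -0.84 and not called without DP3, and 0.24 on unscaled FPKM). Late gestation had 0 called higher and 6 lower than LL, and 0 higher and 5 lower than DP. On unscaled FPKM 5 were called higher and 2 lower in LG than in LL, with 45.6% and 2.35% of all genes. Among the 6 lower than LL was *NFKBIA*, which was at -0.77 and not called on unscaled FPKM. *IL6*, the main inducing cytokine, was at 0.362, 0.506 and 0.413 in LL, at 7.19, 1.46 and 5.93 in DP, and at 0.167, 0.219 and 0.289 in LG. It was higher in DP than in LL by 1.86 (adjusted p = 0.00222) and fell in LG against DP by 2.08 (adjusted p = 0.00226). *SOCS3*, the feedback inhibitor of that pathway, was higher in DP by 1.65 (adjusted p = 0.00443) and fell in LG against DP by 2.79 (adjusted p = 0.000538). *IL1R1*, the interleukin-1 receptor, fell in LG by 3.12 against DP (adjusted p = 0.000117) and by 2.30 against LL (adjusted p = 0.000242), and *OSMR*, the oncostatin M receptor, by 2.61 (adjusted p = 0.000387) and 2.08 (adjusted p = 0.000772). *S100A8*, *S100A9*, *LBP* and *PTX3* had their lowest means in LG. On scaled values 0 of the 6 genes were called higher in DP than in LL, and *LCN2* and *PGLYRP1* were called lower. Whether these signals bear on the levels of the 6 genes was not tested.

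The transcription factors of the pathway were not called on scaled values with all 9 libraries in the fit. *STAT3* had means of 45.6 in LL, 46.1 in DP and 34.8 in LG (adjusted p = 0.954 between DP and LL, 0.173 between LG and LL and 0.185 between LG and DP). *CEBPB* had means of 54.5, 30.6 and 54.4. Its differences of -0.82 on the log2 scale between DP and LL (adjusted p = 0.0199) and 0.81 between LG and DP (adjusted p = 0.0326) stayed under the fold threshold. Without DP3 both were called (-1.018 and 1.015), and without LG1 the latter was called (1.005). On unscaled FPKM *STAT3* was called higher in DP (1.4) and *CEBPB* in LG (1.14) than in LL. *CEBPD* was listed at 0 in every library.

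The scaling bears on these lists, because unscaled values lie higher in DP and LG than in LL for most genes. On unscaled FPKM the calls in DP against LL were 2 higher and 3 lower among the other antimicrobial genes, 5 and 1 among the acute phase genes, 11 and 1 among the receptors and partners and 14 and 0 among the upstream signals. Between LG and LL they were 3 and 2, 1 and 1, 7 and 1, and 5 and 2, in the same order of lists, so the upstream signals turned from 0 higher and 6 lower, with a median of -0.51, to 5 higher and 2 lower, with a median of 0.43. Between LG and DP they were 1 and 2, 0 and 2, 2 and 7, and 0 and 9. Of all genes tested, unscaled FPKM gave 54.3% called higher and 2.51% lower in DP against LL. The shares were 45.6% and 2.35% in LG against LL, and 4.86% and 10.7% in LG against DP.

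**Figure D4:**
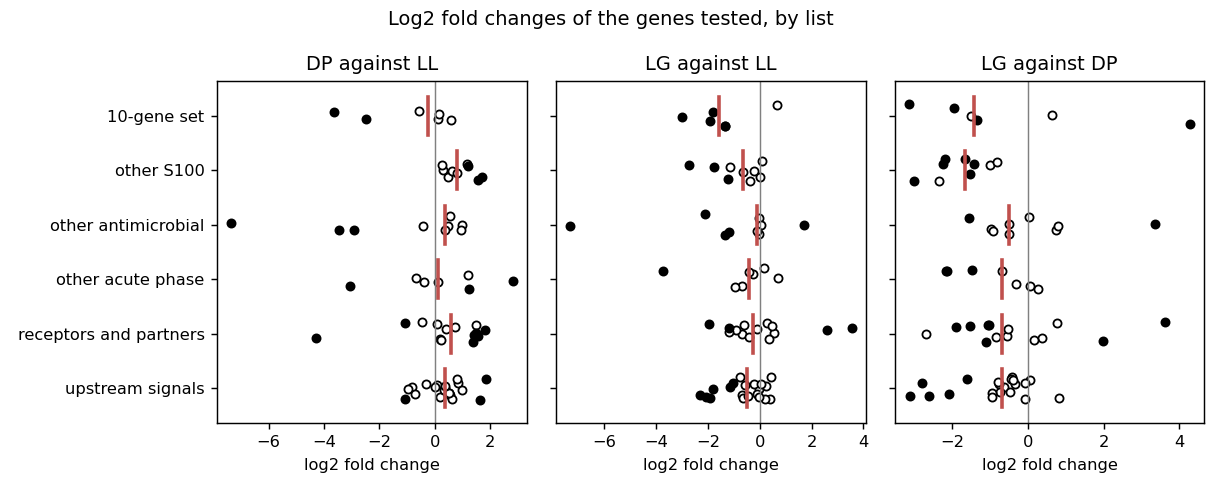
Log2 fold changes of all genes tested in the 10-gene set (6 genes), among the other S100 genes (9), other antimicrobial genes (9), other acute phase genes (7), receptors and partners (14) and upstream signals (20). Filled points were called, and the red line is the median of each list. In LG against DP the medians were -1.43 for the set and -1.65 for the other S100 genes, with *PGLYRP1* as the point at 4.29.

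Of 18 neutrophil markers, 15 were in the table and 10 were tested. The dry period had 0 called higher and 2 lower than LL, *NCF4* (-2.15) and *CXCR1* (-1.3), of which *CXCR1* was not called without LL1 (-0.76) or DP1 (-1.22). On unscaled FPKM 4 of the 10 were called higher and 0 lower, while of all genes tested 54.3% were called higher and 2.51% lower. Late gestation had 1 called higher and 3 lower than LL, and 1 higher and 0 lower than DP. Among the 3 lower than LL was *CXCR2*, which was not called without LL1 (-0.99) or on unscaled FPKM (-0.90). *CSF3R*, the granulocyte colony-stimulating factor receptor, was at 0.10 to 0.416 in LL, at 0.659 to 1.34 in DP and at 3.06 to 4.56 in LG, and was higher in LG than in LL by 1.88 (adjusted p = 4.2e-05). *CXCR1*, a chemokine receptor of neutrophils, fell in LG against LL by 1.64 (adjusted p = 0.00774), with 6.23 in LL1 against 0.976 and 1.29 in the other LL libraries. *MPO* and *MMP8*, products of neutrophil granules and their precursors, stayed under 0.5 FPKM in every library.

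Other leukocyte markers moved in DP in a different direction from *LCN2* and *PGLYRP1*. Of 9 macrophage markers tested, 5 were called higher in DP than in LL and all 9 lower in LG than in DP, and their sum was 93.1 to 126.4 in LL libraries, 229.9 to 292.2 in DP libraries and 98.8 to 113.0 in LG libraries. Of 8 lymphocyte markers tested, 6 were called higher in DP and 4 in LG than in LL. *PTPRC* was higher in DP than in LL by 1.58 (adjusted p = 0.00255) and lower in LG than in DP by 1.24 (adjusted p = 0.0144), the latter not called without DP1 (-0.84) or LG3 (adjusted p = 0.0528). The part of these cells in the levels of the 6 genes was not tested.

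**Figure D5:**
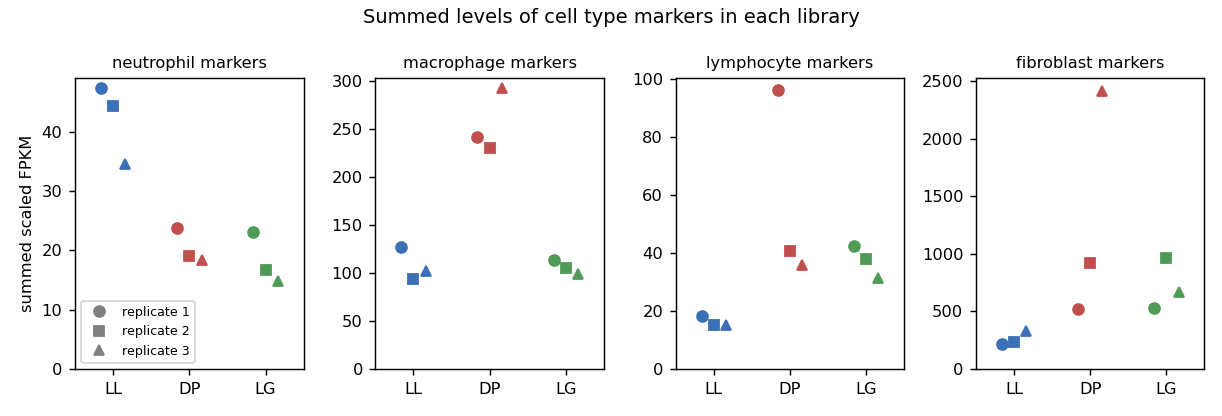
Summed scaled FPKM of marker genes of neutrophils, macrophages, lymphocytes and fibroblasts in each library, with symbols for replicates 1 to 3. Neutrophil sums were 34.6 to 47.4 in LL and at most 23.8 in DP and LG, a gap between LL and DP that rested on *NCF4*, macrophage sums were highest in DP, DP1 had the highest lymphocyte sum (96.2) and DP3 the highest fibroblast sum (2415).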

How the data were processed

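RNA of mammary gland tissue was prepared with a TruSeq kit, which does not mark strand, so a gene and an overlapping antisense gene cannot be told apart. The submitters' processing notes name FastQC, Trimmomatic, HISAT2, SAMtools and HTSeq, whereas the methods of the study describe quantification as FPKM with StringTie and a correction over more libraries. The authors deposited 1 table of 9 columns whose unit is not named, and its values were read as FPKM per gene. No counts could be recovered, so depth and counting error are unknown. The tests use the spread between libraries, in which differences between goats and technical error cannot be told apart. Coordinates are those of the table, and 23465 gene identifiers had the same start and end in RefSeq ARS1.2.

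FPKM were divided by median-ratio factors from 15905 genes, and log2(scaled FPKM + 1) was taken. A gene entered the test when 3 or more libraries reached 0.5 FPKM, which 14701 genes did. The test was limma (version 3.58.1, R 4.3.3; lmFit, then contrasts.fit, then eBayes with trend) on all 9 libraries in 1 fit without covariates, with Benjamini-Hochberg adjustment, and the scripts were tested on simulated data. Values, ranges and correlations were computed in Python 3.11.15. For 1454 genes the values followed those of a neighbour to within 1% of their range, and none of the 6 genes was among them. The milk protein genes *CSN1S1*, *CSN1S2* and *CSN3* were among them. So were *AGER*, *CD27*, *CHI3L1*, *ITIH4*, *KRT5* and *KRT14* of the other lists, which stayed in the list counts, medians and sums. The genes and lists were chosen with earlier results of these data known. Named genes are the 10 genes, up to 3 called genes with the largest change per list and comparison, 9 further genes whatever their result, and the 3 genes most alike to each. Not every gene taken by this rule is described above. Alternatives covered scaling, pseudocount, filter, libraries in the fit, the replicate number as a block, trend, linked genes and each library left out, and marker sums without 1 gene were added after the values were seen.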

Additional observations from a re-analysis of the deposited data

How the results depend on the processing

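Of 342 values of the 6 genes over 19 alternatives, 307 kept direction and side of the threshold, 18 lost and 12 gained a call, and 5 changed sign, all uncalled values in DP against LL. These were *LBP* without scaling (0.63) and, with 1 library left out, *S100A8* (-0.47 to 0.74) and *PTX3* (-1.04 to 1.06). With 1 library left out, the number called was 2 (DP against LL), 2 to 5 (LG against LL) and 3 to 5 (LG against DP), and among all genes it was 3075 to 3422, 2400 to 2576 and 1738 to 2004. Without scaling 2 of the 6 were called between LG and LL. Of all genes, 3321, 2544 and 1948 were called in the 3 comparisons. Adjusted p alone gave 8359, 7383 and 5112, a pseudocount of 0.1 gave 3912 between LG and LL, and no scaling gave 8348 and 7043 against LL, with 95.6%, 95.1% and 31.2% of calls higher in place of 61.1%, 61.8% and 48.1%. Of 1209 values of other named genes, 37 lost and 13 gained a call and 17 changed sign. Without scaling the latter were *LIFR* (0.24) and *CEBPB* (0.56) in DP and *LTF* (1.07), *TLR4* (0.48), *IL6* (0.052), *STAT3* (0.70) and *CEBPB* (1.14) in LG, each against LL. With quantile normalization they were *LTF* (0.22) and *CEBPB* (0.31) in LG against LL. With 1 library left out they were *LTF* (-0.41 to 0.12) and *CEBPB* (-0.17 to 0.18) in LG and *TLR4* (-0.13 to 0.24) and *STAT3* (-0.057 to 0.11) in DP, each against LL. The causes were not tested. Correlations of the deviations of same-numbered goats of different stages were -0.11 to 0.20 over 9 pairs, 3 of them over 0.1. Of the 9 libraries, 6 lay closest to their own number. Each goat was sampled at a single stage, so the design gives no pairing, and whether the numbers pair the samples was not tested. With the replicate number as a block, 3340, 2564 and 1986 genes were called, and *S100A8* was called in LG against LL and DP (adjusted p = 0.00917 and 0.00762), which made 5 of the 6 in each. With 3 goats a stage and FPKM alone, small differences of low genes could not be resolved.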
